A study of Mus musculus with 4 samples.

Results

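The 83 genes described here encode nuclear subunits of the oxidative phosphorylation system of mitochondria, measured in mouse liver on 4 expression arrays. They were chosen by name, from the platform's gene symbols: the numbered Nduf genes of the a, b, c, s and v series, Sdha to Sdhd, the Uqcr genes, Cox4 to Cox8, the Atp5 genes, Cyc1 and Cycs, without the Ndufaf assembly factors. The name rule uses no measured value, but it was chosen with earlier results of these data known. They are 83 of the 18193 genes that had a probe set with a single symbol, and 169 probe sets read them. Each gene was represented by its brightest probe set over all 4 arrays. Of the 83 genes, 77 passed the filter on dim genes and were tested together with all 11993 genes kept. Cox6b2, Cox7a1, Cox7b2, Cox7c, Cox8b and Ndufb4 did not pass.

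Oxidative phosphorylation takes electrons from NADH and succinate and passes them to oxygen. Complex I (NADH dehydrogenase) and complex II (succinate dehydrogenase) hand electrons to coenzyme Q, complex III passes them to cytochrome c, and complex IV (cytochrome c oxidase) passes them to oxygen. Complexes I, III and IV pump protons, and complex V (ATP synthase) uses the proton gradient to make ATP. Most subunits are encoded in the nucleus and imported, while a small core is encoded by mitochondrial DNA. Hepatocytes are rich in mitochondria and spend their ATP on gluconeogenesis, urea synthesis and protein secretion.

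All mice carried a floxed Met gene and a tamoxifen-inducible Cre, given in the labels as Metff/ff:ERCre+/+ and in the protocol as METfl/fl: TamCre+/+. In the group labelled delta MET + EGFRi, tamoxifen was injected on 5 consecutive days to delete exon 16 of Met, the hepatocyte growth factor receptor. After 4 days of rest, canertinib, an EGFR inhibitor, was given in the diet at an intended 80 mg/kg/day. Control littermates received corn oil and neither drug, so that the gene deletion, tamoxifen and canertinib cannot be told apart. The deletion was systemic, not limited to hepatocytes. Livers were taken at day 7 and day 10, and 1 array was run per group and day, on pooled RNA. For delta MET + EGFRi mice the labels number these days from when canertinib feeding began, after tamoxifen and rest. The control labels name only the day. The labels used here give no number of animals per pool, strain, sex or age. Each group thus has 2 arrays, of different days, and the p-values measure only the spread between these arrays.

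The median signal of an array ranged from 210.5 to 223.9 units, and pairs of arrays correlated across the genes kept with r from 0.883 to 0.941. Met, the deleted gene, had 2432.5 and 2829 units in delta MET + EGFRi livers at day 7 and day 10, against 975.5 and 1271 in control livers. Its probes were not placed relative to exon 16, so that this value does not check the deletion. The subunit genes are bright: the 77 tested had a median signal of 6349.9 units, against 684 over all genes kept. Precision is limited by there being only 4 arrays. In whole liver, fewer cells of a type and less RNA per cell cannot be told apart.

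The first comparison asked where the subunit genes stood in delta MET + EGFRi livers relative to control livers of the same day. Most were lower, by a modest amount that was larger at day 10. At day 10 71 of the 77 were lower, where 49.4% of all genes kept were, and at day 7 59 were lower, where 54.9% of all genes were. The median log2 difference (delta MET + EGFRi minus control) of the 77 was -0.49 at day 10 and -0.13 at day 7, against 0.01 and -0.06 over all genes kept. In linear terms the medians were -28.9% at day 10 and -8.51% at day 7. The day 7 median depended on the scaling, at -0.24 after quantile normalization and -0.04 with the arrays scaled to equal medians. Averaged over both days 68 were lower, where 52.3% of all genes were. Of the 77 genes 56 were lower at both days and 3 were higher at both days, where 31.1% of all genes were lower and 26.7% higher at both days.

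For 51 of the 77 genes both delta MET + EGFRi arrays lay under both control arrays, which held for 24.1% of all genes kept. The reverse held for Ndufa4l2 and Ndufb7, where 20.3% of all genes had both delta MET + EGFRi arrays on top. By a 1.5-fold size rule, with 1 array per side and no test, 31 subunit genes were lower at day 10 and 7 at day 7, where 13.5% and 15.4% of all genes were. The same rule found 1 higher at day 10 and 2 at day 7, where 14.6% and 12.1% of all genes were. The share of subunit genes past the rule at day 7, 9.09%, was under that of all genes, while the share at day 10 was 40.3%. The 6 genes past it at both days were Ndufs5, Ndufb10, Uqcrc1, Cycs, Cox8c and Atp5k, where 4.15% of all genes were. At 2-fold, Ndufs5, Ndufa5 and Uqcrfs1 were lower at day 10 and Ndufa4l2 was higher, where 4.91% and 5.84% of all genes were. On its other probe set Ndufa5 did not reach 2-fold at day 10 (-0.55). No subunit gene was past 2-fold at day 7, where 5.15% of all genes were lower and 4.6% higher by as much.

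Over both days no single subunit gene passed the test. In limma's test of 2 arrays against 2, adjusted by Benjamini-Hochberg over all 11993 genes, 0 of the 77 were called lower and 0 higher at an adjusted p under 0.05, where 0.283% of all genes were called lower and 0.375% higher. At an adjusted p under 0.1 the members' counts were still 0, where 0.575% of all genes were lower and 0.775% higher. At an unadjusted p under 0.05, 17 were lower and 1 was higher, where 6.15% and 5.93% of all genes were. The adjusted p of the 77 ranged from 0.146 to 0.994. No set test was made, so that the shift of the group is described by these counts and medians. With the arrays scaled to equal medians, 44 of the 77 were lower at both days, where 29.3% of all genes were, and after quantile normalization 59, where 31.3% were. Without the day 7 delta MET + EGFRi array limma called 4 genes lower, Ndufs5, Uqcrc1, Cox5a and Atp5pb (adjusted p from 0.0149 to 0.0466), where 2.24% of all genes were called lower.

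**Figure D1:**
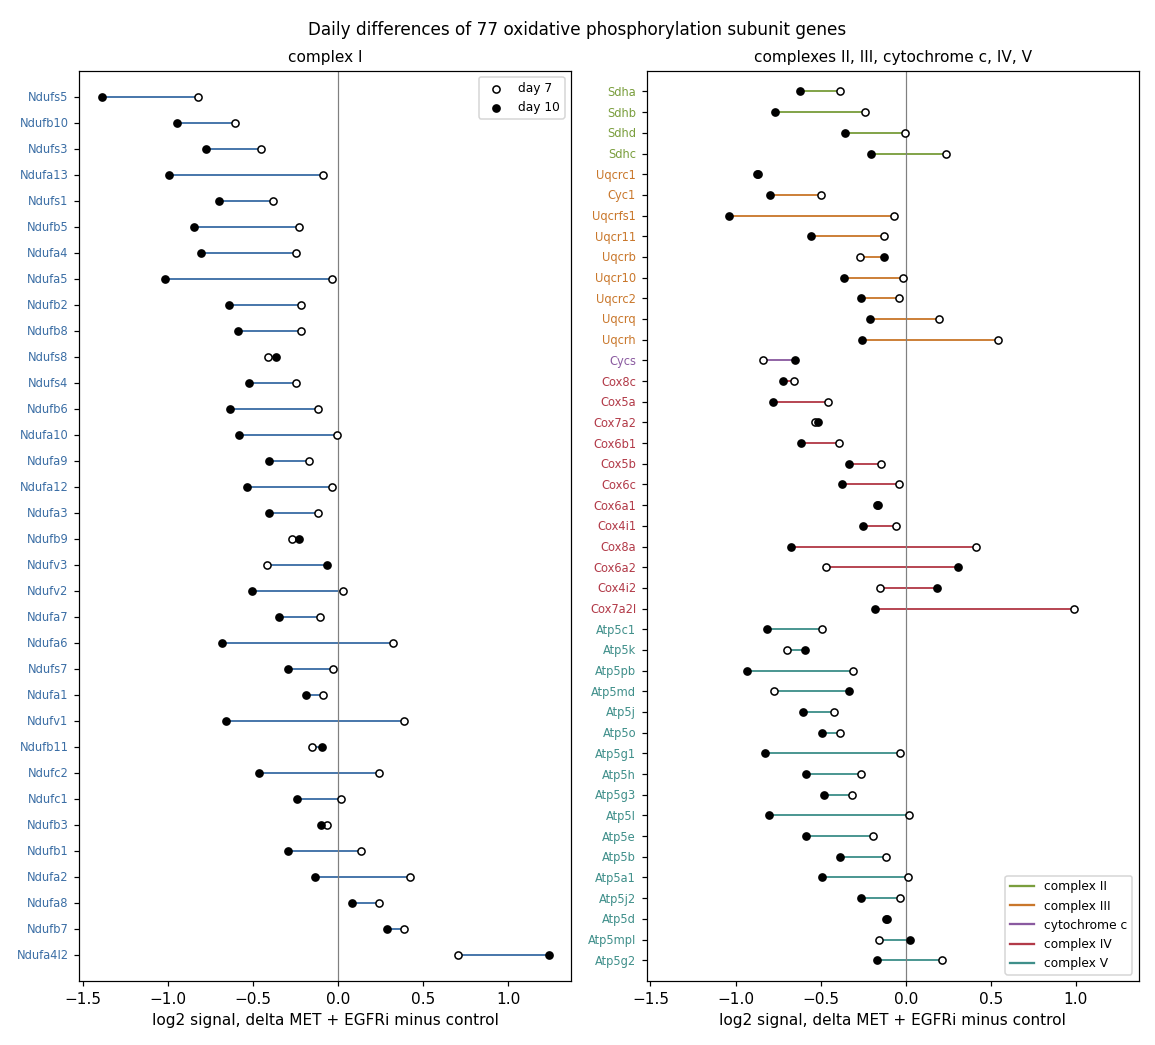
Log2 difference in signal (delta MET + EGFRi minus control, x axis) of each of the 77 tested subunit genes (y axis, coloured by complex and sorted within it by the mean of both days), with 1 array per group and day. Open circles are day 7 and filled circles day 10; at day 10 71 of 77 lie left of 0, and Ndufa4l2, Ndufa8 and Ndufb7 lie right of 0 at both days.

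**Figure D2:**
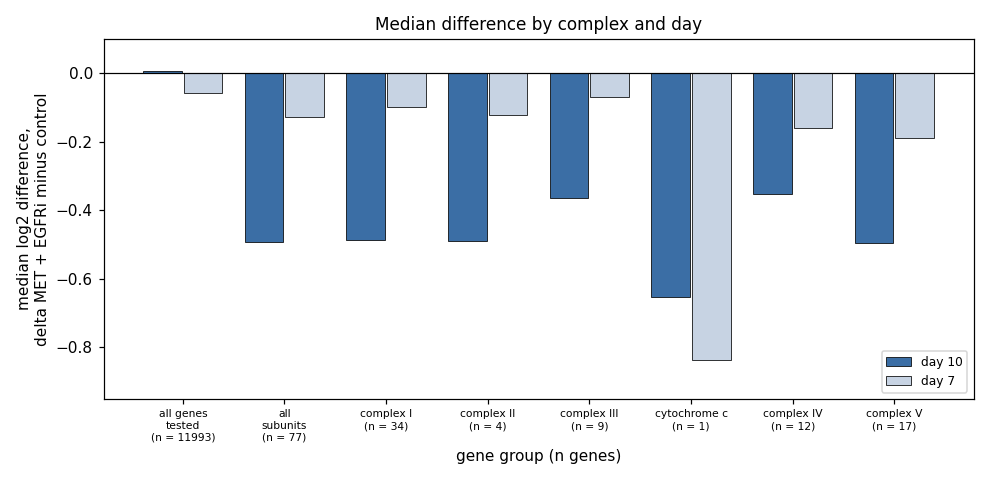
Median log2 difference in signal (delta MET + EGFRi minus control, y axis) at day 10 (dark bars, left) and day 7 (light bars, right) for all genes tested, all subunit genes and each complex (x axis, n genes below each name). Each day has 1 array per group, so that there are no error bars; the day 10 median is further under 0 than the day 7 median in every complex but not in cytochrome c, which is 1 gene.

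Complex I feeds electrons from NADH into the chain, and 34 of its 35 genes were tested. At both days 24 were lower and 3 higher, and the median difference was -0.49 at day 10 and -0.10 at day 7. None passed the test. Ndufs5, a small accessory subunit on the intermembrane face of the membrane arm, gave the lowest value of all subunit genes. Its signal was 2025 and 1472 units in delta MET + EGFRi livers at day 7 and day 10, against 3588.5 and 3857 in control livers. The groups did not overlap, and the log2 difference was -1.11 ± 0.24 (limma SE, n = 2 arrays per group; adjusted p = 0.146). The platform names this probe set Ndufs5 but pairs it with a transcript that RefSeq gives to Ndufs5-ps, a transcribed pseudogene on another chromosome, so that the gene and its copy cannot be told apart here.

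The peripheral arm of complex I reaches into the matrix and carries the flavin and the iron-sulfur clusters. Of its 14 tested genes 10 were lower at both days and 0 higher, with medians of -0.51 at day 10 and -0.07 at day 7. Ndufs3, a core subunit of the quinone-reducing module, had 4079 and 3359.7 units in delta MET + EGFRi livers at day 7 and day 10, against 5579 and 5752 in control livers. Ndufs1, the largest iron-sulfur subunit, had 1948.5 and 1869.6 units in delta MET + EGFRi livers at day 7 and day 10, against 2545 and 3039 in control livers. In both genes the delta MET + EGFRi arrays were the lower ones at each day, with differences of -0.61 ± 0.21 (adjusted p = 0.33) for Ndufs3 and -0.54 ± 0.21 (adjusted p = 0.382) for Ndufs1.

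On their brightest probe sets, other core subunits of this arm stood closer to control. Ndufs8, which holds iron-sulfur clusters near the quinone site, had 7717 and 8547 units in delta MET + EGFRi livers at day 7 and day 10, against 10265 and 11035 in control livers (difference -0.39). Its other probe sets ranged from -0.72 to -0.18 over both days, so that its place beside Ndufs3 and Ndufs1 depends on the probe set. Ndufs7, which carries the last cluster before the quinone, had 4699 and 4375 units in delta MET + EGFRi livers, against 4809 and 5379 in control livers (difference -0.17). In Ndufs7 the day 7 values of both groups lay close together. Ndufv1, which binds NADH and the flavin, had 6861 and 4338 units in delta MET + EGFRi livers at day 7 and day 10, against 5243 and 6859.9 in control livers. Its arrays overlapped, with a difference of -0.66 at day 10 and 0.39 at day 7. Its partner Ndufv2 had 5633 and 4726 units in delta MET + EGFRi livers, against 5515.5 and 6704 in control livers, with differences of -0.50 at day 10 and 0.03 at day 7. Ndufa5, an accessory subunit of the same arm, had 1443 and 924.0 units in delta MET + EGFRi livers, against 1480.2 and 1873 in control livers. Its difference was -1.02 at day 10 and -0.04 at day 7. The other Ndufa5 probe set gave -0.55 at day 10 and 0.34 at day 7, with overlap of the groups.

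The membrane arm of complex I holds the proton pumps, whose core is encoded by mitochondrial DNA. Of the 10 tested Ndufb genes, accessory subunits of its distal part, 8 were lower at both days. Ndufb10 had 2046 and 1702 units in delta MET + EGFRi livers at day 7 and day 10, against 3111 and 3287.5 in control livers. Its arrays did not overlap, and it differed by -0.78 ± 0.21 (adjusted p = 0.233). Ndufb7 stood on the other side, with 5286.5 and 5109 units in delta MET + EGFRi livers at day 7 and day 10, against 4042 and 4196 in control livers and a difference of 0.34 ± 0.20 (adjusted p = 0.551). The other Ndufb7 probe set gave 0.013 over both days, with -0.25 at day 10 and 0.27 at day 7. Of the 8 tested genes of the proximal part 5 were lower at both days, and Ndufa8 was higher at both, by 0.08 at day 10 and 0.24 at day 7. Ndufa13 had 10857 and 7090.3 units in delta MET + EGFRi livers, against 11566 and 14147 in control livers, and its difference of -1.0 at day 10 stood beside one of -0.09 at day 7.

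Ndufa4 and Ndufa4l2 carry complex I names, although Ndufa4 is now counted as a subunit of complex IV. Ndufa4 had 5126 and 4753 units in delta MET + EGFRi livers at day 7 and day 10, against 6091 and 8325 in control livers, a difference of -0.53 ± 0.23 (adjusted p = 0.44). Ndufa4l2, a paralogue known as a target of hypoxia-inducible factor, had 404.1 and 404.0 units in delta MET + EGFRi livers at day 7 and day 10, against 247.9 and 171.5 in control livers. It was the only member with a difference over 1.5-fold upwards at both days and gave 0.97 ± 0.35 over both days, which did not pass (adjusted p = 0.349).

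Promoter sequences are shown for Ndufs5 and Uqcrc1, the members with the lowest values, and for Ndufs3, because the factors NRF1 and GABPA (an ETS factor) are known activators of many respiratory genes. Ndufs3 was picked by hand and is not the next lowest member. The Ndufs5 value may be that of Ndufs5-ps, whose promoter is not shown. The sequences are from RefSeq (GRCm38.p6) and run 5′ to 3′ from 250 bases before to 50 after the annotated start, with capitals marking matches to the NRF1 letters GCGCNTGCG or the ETS letters CCGGAAG on either strand. The Ndufs5 promoter lies at chr4:123718137-123718436 (minus strand), that of Uqcrc1 at chr9:108936398-108936697 (plus strand) and that of Ndufs3 at chr2:90904672-90904971 (minus strand).
Ndufs5: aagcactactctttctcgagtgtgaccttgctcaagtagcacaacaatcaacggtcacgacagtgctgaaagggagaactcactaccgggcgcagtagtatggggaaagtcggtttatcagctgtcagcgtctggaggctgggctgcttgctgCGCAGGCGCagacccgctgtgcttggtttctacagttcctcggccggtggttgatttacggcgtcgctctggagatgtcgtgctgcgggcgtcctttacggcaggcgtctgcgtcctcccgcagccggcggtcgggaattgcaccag
Uqcrc1: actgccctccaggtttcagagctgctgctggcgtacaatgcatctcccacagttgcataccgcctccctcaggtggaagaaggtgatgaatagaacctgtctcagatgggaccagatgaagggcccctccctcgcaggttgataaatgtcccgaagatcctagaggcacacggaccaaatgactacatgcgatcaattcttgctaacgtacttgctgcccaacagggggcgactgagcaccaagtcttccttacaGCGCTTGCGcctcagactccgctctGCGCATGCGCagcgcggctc
Ndufs3: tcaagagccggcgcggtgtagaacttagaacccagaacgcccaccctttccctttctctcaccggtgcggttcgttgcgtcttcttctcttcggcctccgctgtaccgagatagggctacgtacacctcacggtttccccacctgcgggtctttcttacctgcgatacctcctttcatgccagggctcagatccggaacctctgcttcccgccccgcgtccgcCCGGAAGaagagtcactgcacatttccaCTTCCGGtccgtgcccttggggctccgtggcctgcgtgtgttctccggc

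The promoter of Ndufs5 held 1 NRF1 match and that of Uqcrc1 3, in 2 stretches since matches can overlap, while that of Ndufs3 held 2 ETS matches. Of the 83 genes 67 had 72 promoter entries of the same length. NRF1 matches stood in 33.3% of these and in 6.31% of all 32851 promoters, and ETS matches in 23.6% and 8.86%. Matches to the YY1 letters AANATGGCG, a further factor of respiratory genes, stood in 12.5% and 2.38%. Base composition was not matched between these promoters and the rest. The 22 tested genes with an NRF1 match had a median difference of -0.41, and the 39 with a promoter entry and no match -0.29. For the ETS letters the medians were -0.39 over 17 genes with and -0.29 over 44 without, and for YY1 -0.23 over 9 with and -0.39 over 52 without. A match is a description of letters in a window and not a site of binding.

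Complex II joins the citric acid cycle to the chain and is encoded wholly in the nucleus, and its 4 genes were all tested. Sdha, the flavin subunit that oxidises succinate, had 7482 and 7140.0 units in delta MET + EGFRi livers at day 7 and day 10, against 9778 and 10996 in control livers, and Sdhb, the iron-sulfur subunit, had 8625 and 5933 units in delta MET + EGFRi livers, against 10176 and 10107 in control livers. The arrays of neither gene overlapped between groups, and the differences were -0.50 ± 0.20 (adjusted p = 0.398) and -0.50 ± 0.25 (adjusted p = 0.484). On their brightest probe sets the membrane anchors stood nearer to control. Sdhc had 5841 and 4177 units in delta MET + EGFRi livers, against 4954 and 4811 in control livers, with opposite signs at day 7 and day 10. Sdhd had 5105 and 3974 units in delta MET + EGFRi livers, against 5125 and 5097 in control livers, its control value of day 10 lying under its delta MET + EGFRi value of day 7. The other probe set of Sdhd gave -0.61 over both days, without overlap of the groups, and that of Sdhc gave -0.21. Whether the anchors stood nearer to control than Sdha and Sdhb thus depends on the probe set.

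Complex III carries electrons from coenzyme Q to cytochrome c, and 7 of its 9 tested genes were lower at both days. On the brightest probe sets its core and redox subunits had a median difference of -0.60 over 4 genes, and its 5 small subunits -0.19. Other probe sets of the small subunits ranged from -0.71 (Uqcr10) to 0.17 (Uqcrq), and that of the core protein gene Uqcrc2 gave -0.36. Uqcrc1, a core protein of the matrix side, had 6215 and 5818 units in delta MET + EGFRi livers at day 7 and day 10, against 11332 and 10664 in control livers. The difference was -0.87 at day 10 and -0.87 at day 7, and over both days -0.87 ± 0.20 (adjusted p = 0.166). Cyc1, cytochrome c1, had 9826 and 7841 units in delta MET + EGFRi livers at day 7 and day 10, against 13854 and 13635 in control livers, a difference of -0.65 ± 0.22 (adjusted p = 0.322). In both genes the delta MET + EGFRi arrays lay under both controls. Uqcrfs1, the Rieske iron-sulfur protein, had 7133 and 4979 units in delta MET + EGFRi livers at day 7 and day 10, against 7485 and 10216 in control livers, with a difference of -1.04 at day 10 and -0.07 at day 7.

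Uqcrc2, the partner core protein of Uqcrc1, differed by -0.15 (adjusted p = 0.815). Among the small subunits, on their brightest probe sets, Uqcr11 was lowest, at -0.34, and Uqcrh highest, at 0.14. Uqcrh had 10404 and 8909 units in delta MET + EGFRi livers, against 7156 and 10644 in control livers. Uqcrq had 14678 and 12599 units in delta MET + EGFRi livers, against 12835 and 14566 in control livers, and the arrays of both groups overlapped in these 3 small subunits. Cycs encodes cytochrome c, the mobile carrier between complexes III and IV, which also starts apoptosis when released from mitochondria. Its signal was 7652 and 9168 units in delta MET + EGFRi livers at day 7 and day 10, against 13661 and 14412.5 in control livers. It was lower by less at day 10 (-0.65) than at day 7 (-0.84), and the difference of -0.74 ± 0.21 over both days did not pass (adjusted p = 0.247). Another 3 probe sets of Cycs above the filter gave -0.59, -0.46 and -0.29.

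**Figure D3:**
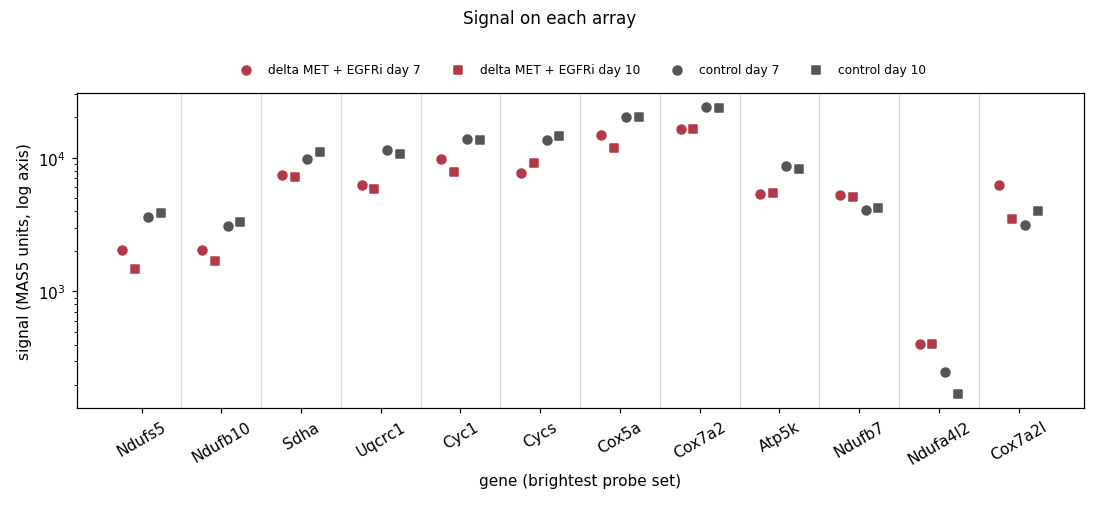
Signal in MAS5 units (y axis, log scale) of 12 subunit genes (x axis) on each array: delta MET + EGFRi in red, left, and control in grey, right, with circles for day 7 and squares for day 10. In the 9 genes from Ndufs5 to Atp5k both red marks lie under both grey marks, in Ndufb7 and Ndufa4l2 above them, and in Cox7a2l only the day 7 red mark lies above both grey marks.

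Complex IV reduces oxygen to water, and 12 of its 17 genes were tested. At both days 8 were lower and 0 higher, with medians of -0.35 at day 10 and -0.16 at day 7. Cox5a, a matrix-side subunit, had 14676.5 and 11809 units in delta MET + EGFRi livers at day 7 and day 10, against 20181 and 20281 in control livers and a difference of -0.62 ± 0.22 (adjusted p = 0.344). Cox7a2, the widely expressed form of subunit VIIa, had 16428 and 16371 units in delta MET + EGFRi livers at day 7 and day 10, against 23786 and 23405 in control livers, a difference of -0.52 ± 0.20 (adjusted p = 0.376). Cox6b1, which faces the intermembrane space, differed by -0.50 ± 0.20 (adjusted p = 0.405). In these genes no delta MET + EGFRi array reached a control array.

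Cox4i1, the common form of subunit IV, had 19668 and 17266.5 units in delta MET + EGFRi livers, against 20427 and 20519.9 in control livers, and Cox5b had 15127 and 13792 units in delta MET + EGFRi livers, against 16724 and 17400.5 in control livers. Their differences were -0.15 and -0.24. Cox6a1, the liver form of subunit VIa, was among the brightest members, with 29694 and 28887 units in delta MET + EGFRi livers, against 33403 and 32328 in control livers, and differed by -0.17. Cox7a2l, which helps to join complexes III and IV into supercomplexes, had 6222 and 3496 units in delta MET + EGFRi livers at day 7 and day 10, against 3139 and 3969 in control livers. It differed by -0.18 (log2) on day 10 and 0.99 on day 7, the largest upward difference of a tested member at that day, and its other probe sets also had their highest signal on that array. Cox8a also stood on opposite sides of control at the 2 days, with 6216 and 3708 units in delta MET + EGFRi livers, against 4679 and 5912.5 in control livers and differences of -0.67 at day 10 and 0.41 at day 7.

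The isoforms of complex IV known from muscle, lung or testis were dim, apart from the probe set named Cox8c. Cox6a2, the heart and muscle partner of Cox6a1, had 420.0 and 548.2 units in delta MET + EGFRi livers, against 581.7 and 444.0 in control livers. Cox4i2, the form of lung and of low oxygen, had 387.3 and 403.7 units in delta MET + EGFRi livers, against 429.9 and 354.8 in control livers. Neither group stood apart from the other in these 2 genes. Cox7a1, the muscle form of VIIa, lay between 117.8 and 153.4 units on all arrays, and Cox8b, the muscle form of VIII, lay under the floor of 64.8 on every array. Cox8c, described from testis, had 2768 and 2423 units in delta MET + EGFRi livers, against 4358 and 3998 in control livers, a difference of -0.69 ± 0.20 (adjusted p = 0.269). Its other probe set gave 0.11, so that the 2 disagree in direction.

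The other members under the filter were not tested. The probe set of Cox7c had 241.9 and 194.2 units in delta MET + EGFRi livers, against 30.6 and 248.8 in control livers, that of Cox6b2 had 158.9 and 47.2 units in delta MET + EGFRi livers, against 42.5 and 191.7 in control livers, and that of Cox7b2 had 83.7 and 125.3 units in delta MET + EGFRi livers, against 54.8 and 105.0 in control livers. Ndufb4 of complex I had 209.5 and 76.0 units in delta MET + EGFRi livers, against 226.9 and 255.1 in control livers. In Ndufb4 both delta MET + EGFRi arrays lay under both control arrays, while in Cox7c, Cox6b2 and Cox7b2 the groups overlapped. With these 6 genes included, 58 of 83 were lower at both days, where 26.4% of the unfiltered genes were.

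Complex V turns the proton gradient into ATP, and its 17 genes were all tested. At both days 13 were lower and 0 higher, with medians of -0.49 at day 10 and -0.19 at day 7. The catalytic head is formed by alpha and beta subunits around a central stalk. Atp5b, the catalytic beta subunit, had 17902 and 15609.7 units in delta MET + EGFRi livers, against 19424 and 20399 in control livers, and Atp5a1, the alpha subunit, had 18945 and 16799.6 units in delta MET + EGFRi livers, against 18757 and 23664 in control livers. They differed by -0.25 and -0.24, and the arrays of Atp5a1 overlapped on this probe set. Other probe sets of Atp5a1 gave -0.24 and, on a dimmer one (206.2 to 1179.8 units), -1.65, both without overlap. Size and overlap for Atp5a1 thus depend on the probe set. Atp5c1, the gamma subunit of the rotor, had 8327 and 6539 units in delta MET + EGFRi livers, against 11707 and 11506 in control livers, a difference of -0.65 ± 0.22 (adjusted p = 0.322). Its other probe set gave 0.11, so that the call of a direction for Atp5c1 depends on the probe set.

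On their brightest probe sets the 4 genes of the peripheral stalk, which holds the head still against the rotor, were all lower at both days without overlap of the groups. Of all genes kept 31.1% were lower at both days, and 24.1% had both delta MET + EGFRi arrays under both control arrays. Atp5pb, subunit b, had 14415 and 10581 units in delta MET + EGFRi livers, against 17859 and 20225 in control livers, a difference of -0.62 ± 0.24 (adjusted p = 0.382). Its other probe set gave 0.02, with -0.42 at day 10, 0.45 at day 7 and overlap of the groups. Atp5j, coupling factor 6, differed by -0.51, Atp5o, which confers oligomycin sensitivity, by -0.44, and Atp5h, subunit d, by -0.42. Among the small membrane subunits, Atp5k, subunit e of the dimer interface, had 5315 and 5429 units in delta MET + EGFRi livers, against 8624 and 8173.5 in control livers. That is a difference of -0.64 ± 0.20 (adjusted p = 0.279), of like size at both days. Atp5md had 2822 and 3375 units in delta MET + EGFRi livers, against 4831 and 4257 in control livers, a difference of -0.33 at day 10 and -0.78 at day 7. Atp5mpl, another small subunit, had 8366 and 8131 units in delta MET + EGFRi livers, against 9324 and 7984 in control livers, with overlap.

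The ring of c subunits that turns in the membrane is encoded by 3 genes with the same mature protein. Atp5g3, the brightest, had 28764 and 25670.5 units in delta MET + EGFRi livers, against 35831 and 35771 in control livers, a difference of -0.40. Atp5g1 had 4018 and 3374.5 units in delta MET + EGFRi livers, against 4114 and 5978 in control livers, a difference of -0.43, and Atp5g2 had 6971 and 5876 units in delta MET + EGFRi livers, against 6008 and 6607 in control livers, a difference of 0.02. None passed, with adjusted p between 0.51 and 0.979. Atp5g3 and Atp5g1 did not overlap between groups, whereas Atp5g2 did.

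The second comparison was between day 7 and day 10 within each group, again with 1 array per side. In delta MET + EGFRi livers 61 of the 77 genes were lower at day 10 than at day 7, where 47.4% of all genes were, and the median log2 difference (day 10 minus day 7) was -0.17. In 63 of the 77 genes the difference between groups was lower at day 10 than at day 7, where 46.9% of all genes had this. In control livers 53 were higher at day 10, where 47.6% of all genes were, and the median was 0.10. Over all genes kept these medians were 0.03 in delta MET + EGFRi livers and -0.02 in control livers. Both held together in 44 genes, and in 23.7% of all genes. The larger gap at day 10 thus held a lower delta MET + EGFRi value and a higher control value. Uqcrfs1 shows both, with a day difference of -0.52 in delta MET + EGFRi livers and 0.45 in control livers. Ndufb5 differed between the days by -0.58 in delta MET + EGFRi livers and by 0.04 in control livers. For Uqcr11, where the delta MET + EGFRi value was also higher at day 10 (0.19), the control day difference was 0.62. For 7 of the 77 genes the day difference of the controls was larger in size than either daily difference between groups, where 21.6% of all genes had this. Whether the difference between groups changed between the days was not tested, since each day has 1 array per group.

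**Figure D4:**
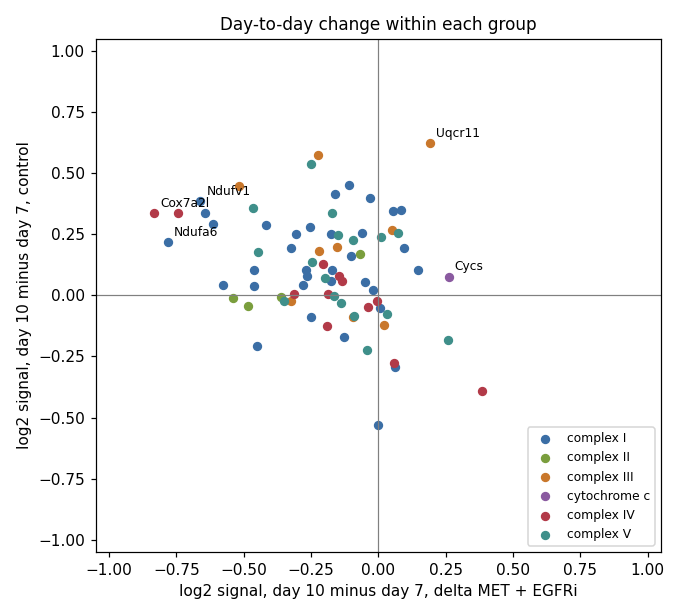
Log2 signal at day 10 minus day 7 within delta MET + EGFRi livers (x axis) and within control livers (y axis) for the 77 tested subunit genes, coloured by complex, with 1 array per group and day. The upper left field, lower at day 10 in delta MET + EGFRi and higher in control, holds 44 genes.

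A second reading came from the other probe sets of the same genes, which were not used above. There were 75 such probe sets above the filter, for 46 genes, and 41 were lower and 4 higher at both days, where 30.1% and 26.7% of all probe sets above the filter were. Their median log2 difference was -0.28, and 62 had the sign of the brightest probe set of their gene. They share the RNA and the arrays with it and are no replicates. In limma's fit over all probe sets above the filter 0 of the 75 had an adjusted p under 0.05, the lowest being 0.165, where 0.191% of all probe sets were called lower and 0.293% higher. At an unadjusted p under 0.05, 16 were lower and 0 higher, where 5.79% and 5.91% of all probe sets were. The probe sets that represented 14 of the 77 genes ended in _x_at or _s_at, a suffix for probes that may match other transcripts. Without such probe sets 72 members were tested, 50 were lower at both days, where 30.8% of all genes were, and the median was -0.25.

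The third comparison set the subunits beside other mitochondrial genes, from 7 lists. None of the genes of these lists passed limma's test in either direction. At an unadjusted p under 0.05, 6 of 41 assembly factors, 3 of 17 citric acid cycle genes, 2 of 16 coenzyme Q genes and 1 of 19 import genes were lower, beside 6.15% of all genes kept. At the same p, 1 gene each of the assembly factors, the citric acid cycle, coenzyme Q and the 17 regulators was higher, beside 5.93% of all genes. Assembly factors, which build the complexes and are not part of them, had a median difference of -0.27 over 41 genes. By day it was -0.20 at day 10 and -0.25 at day 7, beside -0.49 and -0.13 in the subunits, so that it was not larger at day 10. At both days 19 were lower and 6 higher, where 31.1% of all genes kept were lower and 26.7% higher. Among them Ndufaf5, which serves complex I, had 238.7 and 196.9 units in delta MET + EGFRi livers, against 449.2 and 408.6 in control livers, and Coa7 of complex IV had 652.7 and 660.3 units in delta MET + EGFRi livers, against 364.1 and 474.5 in control livers. Sdhaf1, which serves complex II, differed by 0.68 (adjusted p = 0.544) and Atpaf2, which serves complex V, by -1.06 (adjusted p = 0.677). The Atpaf2 value had opposite signs at day 10 (-2.97) and day 7 (0.85). Subunits encoded by mitochondrial DNA were read by 1 gene of the list, ND5 of complex I, with 35963 and 30703 units in delta MET + EGFRi livers, against 27785.5 and 27633 in control livers. Its difference was 0.26 ± 0.21 (adjusted p = 0.673), and both delta MET + EGFRi arrays lay over both controls.

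Enzymes of the citric acid cycle and pyruvate dehydrogenase had a median of -0.18 over 17 genes, with -0.24 at day 10 and -0.13 at day 7. At both days 10 were lower and 1 higher, where 31.1% of all genes kept were lower and 26.7% higher. Idh3b, a subunit of isocitrate dehydrogenase, differed by -0.95 ± 0.24 (adjusted p = 0.2) and Suclg1, of succinyl-CoA ligase, by -0.81 ± 0.19 (adjusted p = 0.182). Mdh2, malate dehydrogenase, stood on the other side, with 17053 and 15566 units in delta MET + EGFRi livers, against 6637 and 10516 in control livers and a difference of 0.96 ± 0.27 (adjusted p = 0.249). Pdha1, of pyruvate dehydrogenase, differed by 0.21. Genes of coenzyme Q synthesis and electron entry had a median of -0.13 over 16 genes, with -0.29 at day 10 and -0.03 at day 7. They ranged from -0.86 in Gpd2 and -0.78 in Coq8a to 0.55 in Coq4 and 0.78 in Coq10b.

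Protein import genes had a median of -0.18 over 19 genes, with -0.29 at day 10 and -0.08 at day 7. At both days 10 were lower and 0 higher, where 31.1% of all genes kept were lower and 26.7% higher. The lowest were the processing peptidase subunit Pmpcb, at -0.80, and the import motor component Timm44, at -0.47, and the highest the receptor Tomm20, at 0.41, and Timm17a, at 0.17. Carriers, porins and genes of inner membrane shape had a median of -0.13 over 17 genes, with -0.05 at day 10 and -0.06 at day 7. They ranged from -0.50 in the dicarboxylate carrier Slc25a10 and -0.39 in the porin Vdac1 to 0.30 and 0.60 in the ADP/ATP carriers Slc25a5 and Slc25a4. Regulators of mitochondrial gene expression had medians of 0.22 at day 10 and 0.31 at day 7 and of 0.05 for the mean of both days over 17 genes. At both days 3 were lower and 6 higher, where 31.1% of all genes kept were lower and 26.7% higher. The coactivators Pprc1 and Ppargc1a differed by 0.75 (adjusted p = 0.37) and 0.60 (adjusted p = 0.526), and Ppargc1b and Gabpa by -0.31 and -0.25. Whether the subunits differ from any of these lists was not tested.

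**Figure D5:**
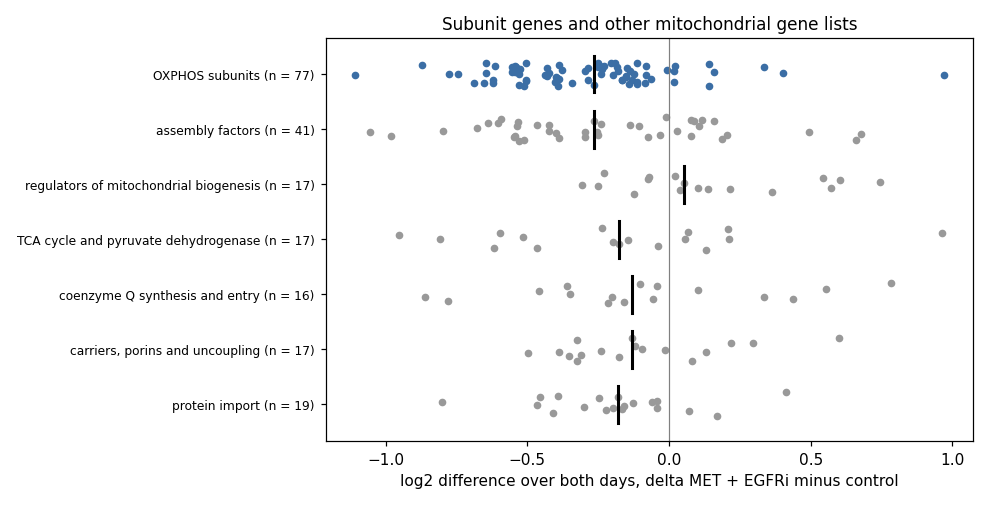
Log2 difference over both days (delta MET + EGFRi minus control, x axis) of each tested gene in the subunit set (blue, top) and in 6 other mitochondrial lists (grey, y axis, n genes in brackets), with a black bar at each median; points are spread vertically at random within a list. The medians run from -0.27 in assembly factors and -0.26 in the subunits to 0.05 in the regulators.

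Markers of other cells moved on the same arrays. Over all genes kept, limma called 0.375% higher and 0.283% lower. The summed signal of 12 macrophage markers was 48906 to 49701 units in delta MET + EGFRi livers and 12111 to 21440 in control livers, and Cd163, C1qc and Vsig4 passed limma's test (adjusted p from 0.0174 to 0.0302). All 12 were higher at both days, where 26.7% of all genes were. The summed signal of 9 hepatocyte markers was 363706 to 426412 units in delta MET + EGFRi livers and 350651 to 369189 in control livers. None of these 9 passed limma's adjusted threshold. At an unadjusted p under 0.05, 3 were higher (Apob, Hnf4a and Asgr1), beside 5.93% of all genes kept. Of 8 neutrophil markers S100a8 and S100a9 were higher (adjusted p = 0.00306 and 0.0307) and Camp lay at the floor throughout, while Mpo, Elane, Ngp, Ltf and Mmp8 did not pass (differences from -0.07 in Elane to 0.76 in Ngp). The summed signal was 9124 to 9170.0 units in delta MET + EGFRi livers and 3393 to 3787 in control livers. Of 9 striated muscle markers Myh4 and Actn3 lay at the floor on all arrays, with sums over the 9 of 1374 to 1393 units in delta MET + EGFRi livers and 1096 to 1183 in control livers. Only 2 were bright enough to be tested, and Ckm differed by 0.99 (adjusted p = 0.236) and Actc1 by -0.48 (adjusted p = 0.615). Acta1, under the filter, had 200.8 and 155.0 units in delta MET + EGFRi livers, against 19.5 and 45.8 in control livers. Of the B and plasma cell markers Jchain was higher (adjusted p = 0.00949), with 1204.5 and 1282 units in delta MET + EGFRi livers, against 106.4 and 150.1 in control livers. Cd79a, Cd79b, Ms4a1 and Mzb1 did not pass and had differences of -0.32, -0.63, -0.13 and -0.03, so that the higher sum of the list, 3376.5 to 3536 units in delta MET + EGFRi livers and 2596 to 2633 in control livers, came from Jchain. No endothelial marker passed, with sums of 7075 to 9838 units in delta MET + EGFRi livers and 6778 to 7861 in control livers, nor any bile duct marker. Of the brown fat markers Ucp1 lay at the floor, and Elovl3, also a liver gene, was lower (adjusted p = 0.000397). The part of these cells in the values of the subunit genes was not tested.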

How the data were processed

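Signals were deposited as linear intensity per probe set, made by the authors with MAS5 per the submitters' processing notes, with no version given. On each array their mean, trimmed by 2% at each end, was about 500. Of 45101 probe sets 34945 had 1 gene symbol in the platform table, and the rest were left out. Signals under 64.8 (the 25th percentile) were raised to it before taking log2, the brightest probe set stood for each gene, and genes with a mean log2 over 7.67 (a signal of 204) were kept. Groups were set against each other by lmFit and eBayes (trend = TRUE) of limma 3.58.1 in R 4.3.3, with 2 residual degrees of freedom, without a term for day, and two-sided p-values were adjusted over all genes kept. Single days were described by a 1.5-fold size rule. The members, gene lists, tests and alternatives were chosen with earlier results of these data known. Any member could be named; values on every array were due for core catalytic subunits, isoform pairs, and the 3 lowest and 2 highest genes of each complex, and from other lists up to 2 lowest and 2 highest genes were named. Other members were shown by choice after their values were seen. Parts of a complex were assigned by hand from general knowledge. Promoters came from RefSeq (GRCm38.p6), which held an entry for 67 of the 83 genes. Alternatives changed the normalization, floor, filter, probe set, model and threshold, or left out 1 array.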

Additional observations from a re-analysis of the deposited data

Results flagged for a closer look

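In 18 of the 77 genes the difference between delta MET + EGFRi and control livers had opposite signs at day 7 and day 10, 15 of them higher at day 7 and lower at day 10 and 3 the other way. Each day has 1 array per group, so that the change between days was not tested. The log2 difference at day 10 minus that at day 7 was -1.17 for Cox7a2l, -1.08 for Cox8a, -1.05 for Ndufv1 and -1.0 for Ndufa6. It was -0.82 for Atp5l, -0.80 for Uqcrh, -0.71 for Ndufc2, -0.56 for Ndufa2, -0.53 for Ndufv2 and -0.51 for Atp5a1. It was -0.44 for Sdhc, -0.43 for Ndufb1, -0.40 for Uqcrq, -0.38 for Atp5g2 and -0.26 for Ndufc1. The 3 genes that went the other way were Cox6a2 (0.77), Cox4i2 (0.34) and Atp5mpl (0.18), the first 2 of them dim.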

How the results depend on the processing

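The median over both days ranged from -0.31 to -0.25 over the normalizations, floors, filters and probe set choices tried, and from -0.38 to -0.21 when 1 array was left out. Lower at both days could not be counted with 1 array left out. The members with every delta MET + EGFRi array under every control array, 51 on 4 arrays, numbered 55 to 64 on 3, where fewer arrays have to differ (counted after seeing the data). With 1 array left out, the complex medians stayed negative; they ranged from -0.45 to -0.12 in complex II, the value nearest 0 being without the day 10 delta MET + EGFRi array, and from -0.29 to -0.09 in complex III, nearest 0 without the day 10 control array. Calls by limma are not given with 1 array left out, since 1 group then has a single array. At 2-fold, 3 members were lower at day 10, 0 were lower at day 7 and 0 higher at day 7. Among all genes kept, limma called 34 lower and 45 higher, against 0 of either without the filter (18193 genes tested) and 19 and 23 without the intensity trend. Replicate numbers were given in accession order, but the labels give each day 1 array of each group. With day as a replicate block, 0 members were called, as without it, and 23 genes were lower and 24 higher, so no member's call changed.

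Of 41 members recomputed, 14 turned sign under at least 1 alternative. With 1 array left out, Atp5g2 ranged from -0.10 to 0.15, Atp5mpl from -0.18 to 0.047, Cox4i2 from -0.12 to 0.16, Cox6a2 from -0.28 to 0.11, Cox7a2l from -0.014 to 0.82, Cox8a from -0.50 to 0.24, Ndufv1 from -0.47 to 0.19, Sdhc from -0.22 to 0.26, Uqcrh from -0.14 to 0.43 and Uqcrq from -0.12 to 0.10. Without _x_at and _s_at probe sets, as on their other probe set, Atp5c1 was at 0.11, Atp5pb at 0.017, Sdhc at -0.21 and Uqcrq at 0.015. Other probe sets put Cox8a at 0.17, Cox8c at 0.11, Ndufv1 at 0.029, Sdha at 0.23, Uqcrh at -0.034 and Uqcrq at 0.17. The mean of probe sets put Cox6a2 at 0.30, Sdhc at -0.094 and Uqcrq at 0.016, and equal medians put Uqcrq at 0.0094. The cause was not tested.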

Other observations

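Ndufab1, the acyl carrier protein that is also a complex I subunit, lies outside the name rule used for the 83 genes. Its signal was 2896 and 2713 units in delta MET + EGFRi livers, against 3393.5 and 4345 in control livers. The groups did not overlap, and the log2 difference of -0.45 ± 0.22 did not pass limma's test (adjusted p = 0.483).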
